A study of Rattus norvegicus with 20 samples.

Results

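The interaction between BGZ_L and hydrocortisone in rat liver is the difference between 2 responses to BGZ_L, one measured in rats that also received hydrocortisone and one in rats that did not. It was computed from all 20 libraries of the series, which were made from male rat liver, with 4 groups of 5 rats. CON rats received only the vehicle, CMC-Na at 0.5%. BGZ_L rats were dosed with the powder BGZ_L, 0.9 g/kg, KYDS rats received hydrocortisone, a glucocorticoid, at 25 mg/kg, and KYDS+BGZ_L rats received both at those doses. The labels name no strain, age, route, length of dosing or hour of sampling, and they give 5 rats and 5 libraries for each group. Of the 32883 genes in the table, 11869 passed a filter on low values and were tested, and 11867 of these have a symbol.

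Expression is given as TPM, a transcript abundance corrected for gene length, after scaling between libraries, so that levels can be compared between genes. Effects are differences of log2(TPM + 0.5) with their standard errors (SE), from 1 limma fit of the 4 group means with n = 5 in each, and they understate the changes of genes with low values. A negative interaction means that KYDS+BGZ_L minus KYDS was lower than BGZ_L minus CON. Adjusted p values come from limma's two-sided test with correction over all 11869 genes, and the threshold is 0.05.

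Of the 4 genes with the lowest interaction p, Dbp, Nr1d1 and Per2 belong to the circadian clock, a transcriptional loop that runs in nearly every liver cell, and Dipk2a, which lies before Per2 in that order, does not. CLOCK and BMAL1 (the product of Arntl) bind E-box sequences and switch on Per, Cry, Nr1d1 and the output gene Dbp. PER and CRY proteins then block CLOCK and BMAL1, REV-ERB proteins (from Nr1d1 and Nr1d2) repress Arntl through ROR elements, and DBP and TEF act on D-box sequences, so that the transcripts of the loop rise and fall over the day. In liver the clock receives timing cues from glucocorticoids and from feeding.

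Promoters of 5 clock genes of the loop described above are printed, chosen as genes on which the results turn, after their values were seen. Each run is the 250 bases before the gene's start in RefSeq (GRCr8), 5′ to 3′ on the gene's strand, and capitals mark a motif found by its letters. Motifs were searched on both strands as CACGTG (E-box), CACGTT or AACGTG (E-box variant), TTATGTAA or TTACGTAA with their reverse complements (D-box), and TAGGTCA with its reverse complement (ROR element). None of these marks overlap.
Dbp promoter, chr1:105312006-105312255, plus strand: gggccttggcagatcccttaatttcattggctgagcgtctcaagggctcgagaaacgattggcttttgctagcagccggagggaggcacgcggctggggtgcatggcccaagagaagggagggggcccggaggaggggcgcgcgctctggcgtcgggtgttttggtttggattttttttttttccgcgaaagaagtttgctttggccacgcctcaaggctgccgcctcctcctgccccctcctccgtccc
Nr1d1 promoter, chr10:84231813-84232062, minus strand: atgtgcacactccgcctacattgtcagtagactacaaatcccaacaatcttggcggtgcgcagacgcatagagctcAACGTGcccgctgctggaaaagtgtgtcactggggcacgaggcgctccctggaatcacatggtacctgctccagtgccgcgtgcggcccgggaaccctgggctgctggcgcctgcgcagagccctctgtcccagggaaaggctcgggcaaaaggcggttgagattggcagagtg
Per2 promoter, chr9:99496994-99497243, minus strand: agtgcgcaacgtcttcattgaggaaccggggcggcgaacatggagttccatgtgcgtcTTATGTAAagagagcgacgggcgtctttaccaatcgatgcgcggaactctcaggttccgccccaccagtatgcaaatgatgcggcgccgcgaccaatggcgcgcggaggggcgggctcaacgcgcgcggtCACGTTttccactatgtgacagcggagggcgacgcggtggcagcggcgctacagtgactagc
Tef promoter, chr7:115206577-115206826, plus strand: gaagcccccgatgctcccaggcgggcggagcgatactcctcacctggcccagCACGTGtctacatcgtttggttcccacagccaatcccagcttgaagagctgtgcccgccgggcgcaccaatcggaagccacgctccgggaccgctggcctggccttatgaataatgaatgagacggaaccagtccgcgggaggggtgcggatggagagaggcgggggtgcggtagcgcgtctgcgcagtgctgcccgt
Arntl promoter, chr1:176766078-176766327, plus strand: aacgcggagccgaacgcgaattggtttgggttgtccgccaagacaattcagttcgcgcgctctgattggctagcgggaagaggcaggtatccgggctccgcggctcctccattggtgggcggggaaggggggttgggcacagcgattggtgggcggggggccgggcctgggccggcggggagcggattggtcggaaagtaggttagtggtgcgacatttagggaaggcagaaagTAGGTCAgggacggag
The Nr1d1 run holds the variant AACGTG with its first base 174 bases before the start. Per2 holds the D-box TTATGTAA 192 bases and the variant CACGTT 62 bases before its start. Tef holds the E-box CACGTG 198 bases and Arntl, called Bmal1 in RefSeq, the ROR element TAGGTCA 16 bases before the start. The Dbp run holds no match, which says only that these letters are not in this window. In 27457 rat promoters of the same length, 5.79% held the E-box, 4.14% the variant, 0.925% the D-box and 2.26% the ROR element. Of the 16 clock genes tested, 14 have an entry and 5 are printed. These matches describe the sequence and no binding was measured.

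Dbp and Nr1d1 were lower with BGZ_L in rats given hydrocortisone, no such difference was detectable in rats without it, and the interaction was itself past the threshold. Clock transcripts vary over the day and the labels do not name the hour. A difference in hour between the groups and an effect of treatment therefore cannot be told apart for these genes. The same limit holds for any other gene whose level varies with the hour, in every comparison of groups below. Words such as raised, lowered and fell describe differences between groups. The interaction passed for 3 of 11869 genes (0.0253%), Dbp and Nr1d1 with a negative sign (0.0169% lower) and Dipk2a with a positive one (0.00843% higher). Per2 missed the threshold narrowly. At an unadjusted limma p under 0.05 there were 447 genes (3.77%), 206 positive (1.74%) and 241 negative (2.03%). The count was 0 without scaling between libraries and with TPM recomputed over nuclear genes, and it was again 3 with median-ratio factors.

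Dbp, a D-box transcription factor that carries the clock's rhythm to metabolic genes, had the largest change among the 3 genes that passed. Its levels were 62.8, 23.9, 37.4, 46.0 and 61.2 TPM in CON 1 to 5 and 76.3, 53.7, 57.6, 111 and 87.3 TPM in BGZ_L 1 to 5. They were 48.2, 65.0, 42.0, 10.6 and 49.8 TPM in KYDS 1 to 5 and 3.61, 3.67, 2.58, 2.81 and 3.14 TPM in KYDS+BGZ_L 1 to 5. All 5 KYDS+BGZ_L libraries lie below the other 15, while the other 3 groups overlap and KYDS 4 is the lowest among them. BGZ_L changed Dbp by 0.76 ± 0.38 log2 without hydrocortisone (adjusted p = 0.826) and by -3.37 ± 0.38 with it (adjusted p = 0.00034). The interaction was -4.14 ± 0.54 log2, with a 95% interval of -5.27 to -3.01 and an adjusted p of 0.00307. Read the other way, hydrocortisone gave -0.23 log2 without BGZ_L (adjusted p = 0.754) and -4.37 with it (adjusted p = 1.54e-06). The exact permutation test of Dbp alone, in which BGZ_L labels were exchanged within rats with and within rats without hydrocortisone, gave p = 0.000189 (two-sided; the smallest it can give is 3.15e-05). Dbp stayed past the threshold without any 1 of the 20 libraries (highest adjusted p = 0.0114, without KYDS 5), and it missed the threshold without scaling (-4.68 log2, adjusted p = 0.266) and with nuclear TPM (-4.25 log2, adjusted p = 0.0977).

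Nr1d1 encodes REV-ERB-alpha, the nuclear receptor that represses Arntl and ties the clock to lipid and bile acid metabolism. It stood at 5.64, 4.19, 6.50, 4.79 and 3.16 TPM in CON and at 6.09, 6.21, 7.70, 12.5 and 10.7 TPM in BGZ_L libraries. KYDS libraries had 5.82, 9.51, 6.82, 2.85 and 6.12 TPM, and KYDS+BGZ_L libraries 0.626, 1.15, 1.5, 1.67 and 0.625 TPM. The last group again lies wholly below the rest, and KYDS 4 is again the lowest of the other 15. BGZ_L gave 0.75 ± 0.30 log2 without hydrocortisone (adjusted p = 0.783) and -2.03 ± 0.30 with it (adjusted p = 0.00412). The interaction of Nr1d1 was -2.78 ± 0.42 log2 (95% interval -3.65 to -1.91, adjusted p = 0.0112, exact permutation p = 9.45e-05). It held without any 1 library (highest adjusted p = 0.0372) and was lost without scaling (-3.31 log2, adjusted p = 0.634), with nuclear TPM (-3.08, adjusted p = 1) and when CON 2 and BGZ_L 3, whose scaling factors were the lowest, were both left out (-2.80, adjusted p = 0.0942).

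Thra, the thyroid hormone receptor alpha gene, overlaps Nr1d1 by 1061 bases in RefSeq (GRCr8). Whether reads were counted by strand is not given in the sources used here, so reads of the 2 genes cannot be told apart in the overlap. Its interaction was -1.69 ± 0.43 log2 (adjusted p = 0.667), with 0.855 to 2.17 TPM in KYDS+BGZ_L and 1.36 to 6.16 TPM in the other libraries, so the groups overlap. It passed with library weights (-2.17 log2, adjusted p = 0.0299).

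**Figure D1:**
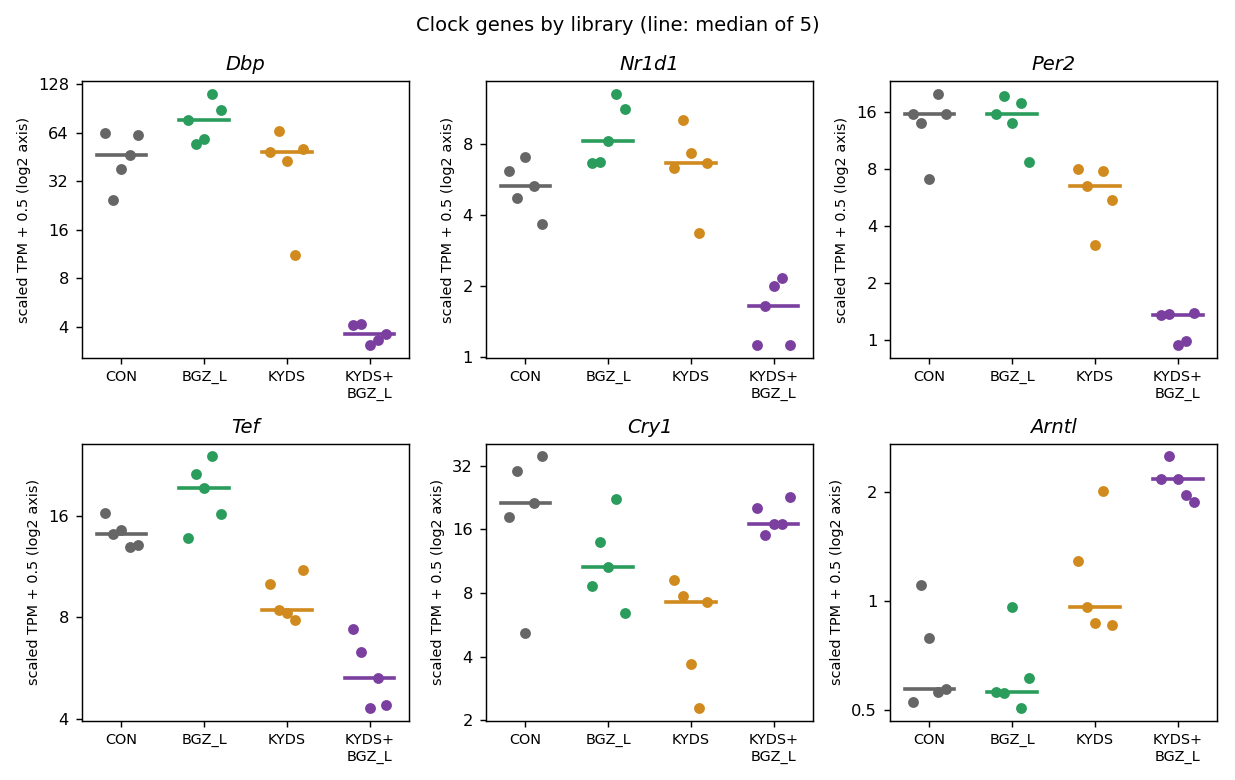
Scaled TPM plus 0.5 (log2 axis) of 6 clock genes in each of the 20 libraries, by group, with 1 point per library and a line at each group's median. For Dbp, Nr1d1, Per2 and Tef the 5 KYDS+BGZ_L points lie below all 15 others, and for Cry1 they lie above all KYDS points.

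The period genes, whose proteins close the negative arm of the clock, had 3 negative estimates. Per2 was at 15.0, 13.5, 6.58, 19.4 and 15.0 TPM in CON and 15.1, 18.8, 13.4, 17.3 and 8.17 TPM in BGZ_L libraries. KYDS libraries had 7.42, 6.01, 2.68, 7.24 and 4.96 TPM and KYDS+BGZ_L libraries 0.844, 0.872, 0.436, 0.480 and 0.890 TPM. KYDS+BGZ_L lies below all other libraries, and unlike Dbp, Per2 was lowered by hydrocortisone alone (-1.22 log2, adjusted p = 0.0254). BGZ_L gave 0.09 ± 0.30 log2 without hydrocortisone (adjusted p = 0.971) and -2.31 ± 0.30 with it (adjusted p = 0.0014). The interaction of Per2 was -2.39 ± 0.42 log2 (95% interval -3.28 to -1.50), with an adjusted p of 0.0505 and an exact permutation p of 0.00353. It passed in 4 of the 20 fits that leave out 1 library, those without CON 3, CON 4, BGZ_L 5 or KYDS 3 (adjusted p from 0.016 to 0.0479), and the highest adjusted p of the 20 was 0.155, without KYDS+BGZ_L 3. It also passed with an added constant of 0.1 (-2.90 log2, adjusted p = 0.015), a stricter filter (adjusted p = 0.0355), the replicate block (adjusted p = 0.0373), library weights (-2.12, adjusted p = 0.0275) and without CON 4 and CON 5 (adjusted p = 0.0469). With nuclear TPM the estimate was -2.75 and the adjusted p 1.

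Per3 and Per1, both named after their values were seen, also had their lowest levels in KYDS+BGZ_L libraries. Per3 ranged from 0.868 to 1.64 TPM in KYDS+BGZ_L libraries and from 2.45 to 34.8 TPM in the other 15, so the groups do not overlap. BGZ_L lowered Per3 with hydrocortisone (-2.45 ± 0.47 log2, adjusted p = 0.0389), but its estimate without hydrocortisone was also negative (-1.17 ± 0.47, adjusted p = 0.784), and the interaction was -1.27 ± 0.66 (adjusted p = 0.999). Per1 had 0.0882 to 0.318 TPM in KYDS+BGZ_L and 0.249 to 3.69 TPM elsewhere, which overlap, with an interaction of -0.86 ± 0.47 log2 (adjusted p = 0.999).

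Cry1, a cryptochrome that represses CLOCK and BMAL1 late in the cycle, had an estimate of the opposite sign. It measured 17.8, 29.6, 4.67, 20.7 and 34.9 TPM in CON, 8.13, 13.4, 10.1, 21.8 and 5.91 TPM in BGZ_L, 8.76, 7.28, 3.20, 1.79 and 6.72 TPM in KYDS and 19.7, 14.6, 16.4, 16.5 and 22.3 TPM in KYDS+BGZ_L libraries. All 5 KYDS+BGZ_L libraries lie above all 5 KYDS libraries and within the CON range. Hydrocortisone alone lowered Cry1 (-1.78 log2, adjusted p = 0.0323), and with BGZ_L the hydrocortisone effect was 0.69 log2 (adjusted p = 0.319). The interaction of 2.48 ± 0.66 log2 had an unadjusted limma p of 0.00125 and did not pass (adjusted p = 0.743). Its paralogue Cry2 had an interaction of -0.09 ± 0.44 (adjusted p = 0.999).

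Arntl, the gene of the activator BMAL1 whose promoter run above holds the ROR element, was low in most rats without hydrocortisone. Its levels were 0.0265, 0.605, 0.289, 0.0633 and 0.0727 TPM in CON and 0.0619, 0.058, 0.463, 0.00743 and 0.113 TPM in BGZ_L libraries. They were 0.793, 0.462, 0.369, 1.51 and 0.360 TPM in KYDS and 1.67, 2.01, 1.68, 1.46 and 1.38 TPM in KYDS+BGZ_L libraries. KYDS 4, the KYDS library with the least Dbp and Nr1d1, has the most Arntl of its group and is the sole KYDS library that reaches the KYDS+BGZ_L range. The interaction was 1.04 ± 0.37 log2 (adjusted p = 0.999). The hydrocortisone estimate for Arntl was 1.77 log2 in rats given BGZ_L (adjusted p = 0.000529) and 0.73 in rats without it (adjusted p = 0.0963). Outside KYDS+BGZ_L only CON 2, KYDS 1 and KYDS 4 reached 0.5 TPM, the level of the filter. Arntl was therefore tested through the group where it is high, and these p values support nothing further. Npas2, a partner that can stand in for CLOCK, did not pass the filter and was listed at 0 to 0.0813 TPM without hydrocortisone, 0.0998 to 0.307 TPM in KYDS and 0.384 to 0.687 TPM in KYDS+BGZ_L libraries. Clock itself had an interaction of 0.13 ± 0.26 log2 (adjusted p = 0.999).

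Among the remaining clock genes, the D-box factor Tef gave -1.13 ± 0.29 log2 (adjusted p = 0.667), with 3.80 to 6.90 TPM in KYDS+BGZ_L and 7.35 to 23.5 TPM in the other libraries, which do not overlap. The third factor of that family, Hlf, gave -0.47 ± 0.39 (adjusted p = 0.999). Nr1d2, which encodes REV-ERB-beta, gave -1.25 ± 0.42 (adjusted p = 0.999), with 0.615 to 1.21 TPM in KYDS+BGZ_L and 0.907 to 5.32 TPM elsewhere. Ciart, a circadian repressor, was listed at 0 in 3 KYDS+BGZ_L libraries and at 0.0168 and 0.0703 TPM in the other two, against 0.0696 to 4.70 TPM elsewhere (interaction -0.97 ± 0.62, adjusted p = 0.999). Rora, Nfil3 and Bhlhe40 had estimates between -0.20 and 0.42. Nr1d2, Ciart and the genes of the preceding sentence are named because they are clock members, not by the naming rule.

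Of 20 clock names listed, 16 were tested, since 3, Npas2 and Bhlhe41 among them, did not pass the filter and Bmal1 is listed as Arntl. Of the 16, 2 passed with a negative sign. At an unadjusted limma p under 0.05, 2 were positive (12.5%, against 1.74% of all genes), 5 were negative (31.2%, against 2.03%) and 9 did not reach it, and 11 of the 16 estimates were below 0. The 2 positive genes were Cry1 and Arntl, and Arntl passed the filter through the group where it is high. Over all 11869 genes, 6013 estimates were below 0 and 5856 above it. The median interaction of the clock list was -0.66 log2, against -0.0076 over all 11869 genes. Members of this and the other lists share 1 set of libraries, so their signs are not independent of each other. In 5 of the 16 (Dbp, Nr1d1, Per2, Tef and Per3) every KYDS+BGZ_L library lay below the other 15, which holds for 13 of 11869 genes (0.11%). None of the 16 tested clock genes lay wholly above the rest, which holds for 11 of 11869 genes (0.0927%). Npas2, a clock gene that did not pass the filter and is not counted here, did lie above. It had 0.384 to 0.687 TPM in KYDS+BGZ_L libraries and at most 0.307 TPM in the other 15. The clock list was drawn up with earlier results of these data known, so these shares describe it and support nothing further. The median stayed negative in 33 of 33 alternative fits (-1.13 to -0.44).

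The spread of clock transcripts between rats was lowest in KYDS+BGZ_L by the median over genes. The median SD of log2 values over the 16 genes was 0.232 in KYDS+BGZ_L, 0.565 in CON, 0.446 in BGZ_L and 0.558 in KYDS libraries. KYDS+BGZ_L had the lowest SD of the 4 groups in 12 of 16 clock genes, and in 5261 of all 11869 genes, where the median SDs were 0.377, 0.551, 0.544 and 0.462 in the same order. The added constant of 0.5 narrows the SD of genes near 0, such as Ciart and Per1 in KYDS+BGZ_L (SD 0.0822 and 0.172 log2 at mean levels of 0.0174 and 0.194 TPM). Over the 9 clock genes with a mean of at least 1 TPM in every group, the median SD was 0.265 in KYDS+BGZ_L, 0.659 in CON, 0.536 in BGZ_L and 0.748 in KYDS libraries, and KYDS+BGZ_L had the lowest SD in 6 of the 9. The same held for 3367 of the 7806 genes at that level, where the median SDs were 0.390, 0.542, 0.528 and 0.488, so a lower spread in KYDS+BGZ_L is not limited to the clock. This is a description with no test.

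**Figure D2:**
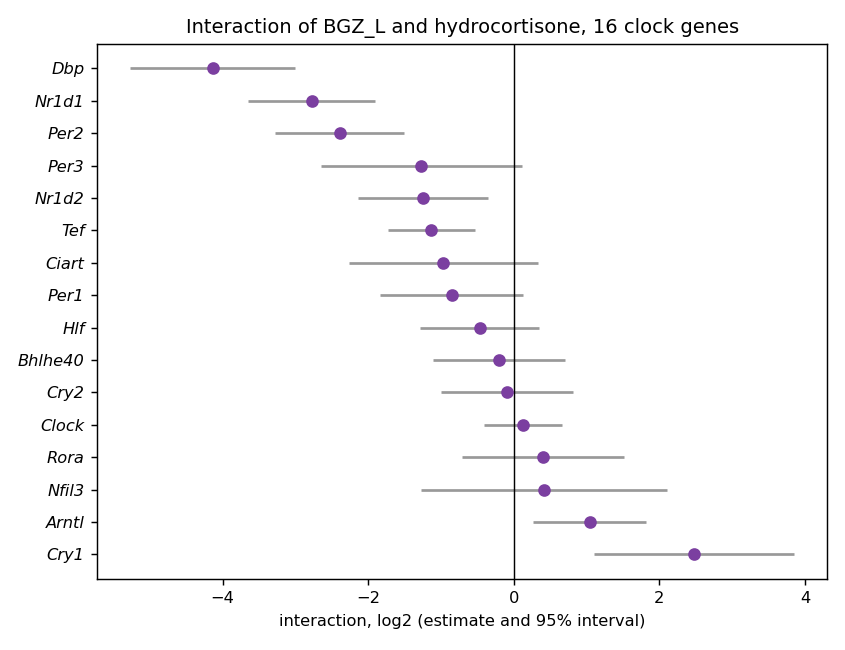
Interaction of each of the 16 tested clock genes in log2 units with its 95% interval from limma, ordered by size, with 0 marking an equal response to BGZ_L with and without hydrocortisone. Dbp, Nr1d1 and Per2 lie farthest below 0 and Cry1 farthest above.

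Each response behind the interaction gave its own count. BGZ_L against CON gave 0 genes (0%) past the adjusted threshold in limma and 715 (6.02%) at an unadjusted p under 0.05, with 0 of 16 clock genes past the adjusted threshold. KYDS+BGZ_L against KYDS gave 7 genes higher (0.059%) and 8 lower (0.0674%), and 4 of those 8 are the clock genes Dbp, Nr1d1, Per2 and Per3. KYDS against CON gave 386 genes higher (3.25%) and 358 lower (3.02%), with Per2 and Cry1 of the clock list among the lower. KYDS+BGZ_L against BGZ_L gave 1047 higher (8.82%) and 1015 lower (8.55%), with 2 clock genes higher and 8 lower. These comparisons share libraries in pairs. The BGZ_L effects with and without hydrocortisone share none, and their Pearson correlation across genes was 0.149, a description in which genes are not independent replicates. For the 2 hydrocortisone effects, which also share no library, it was 0.761.

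**Figure D3:**
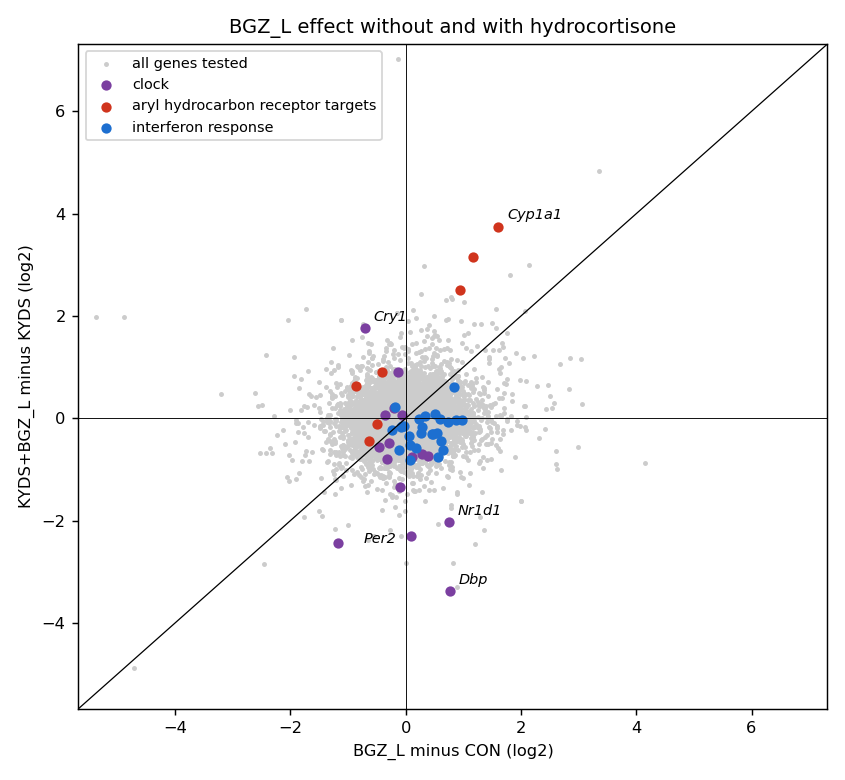
BGZ_L effect in rats without hydrocortisone (horizontal axis, log2) against the effect in rats with it (vertical axis, log2), with 1 point per tested gene, 3 gene lists in colour and a diagonal where the 2 effects are equal. The vertical distance from the diagonal is the interaction, negative below the diagonal, with Dbp, Nr1d1 and Per2 far below it and Cry1 and Cyp1a1 above it.

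Dipk2a, which encodes a divergent kinase-like protein of the secretory pathway, was the gene that passed with a positive sign. It lies outside the naming rule, because its mean level is too low, and was chosen after its values were seen. Its levels were 0.804, 0.778, 0.694, 0.491 and 0.836 TPM in CON and 0.144, 0.232, 0.116, 0.134 and 0.326 TPM in BGZ_L libraries. They were 3.22, 1.08, 2.06, 1.40 and 1.40 TPM in KYDS and 4.29, 3.07, 3.53, 5.26 and 4.08 TPM in KYDS+BGZ_L libraries. All BGZ_L libraries lie below all CON libraries, and KYDS+BGZ_L overlaps KYDS only at KYDS 1. BGZ_L gave -0.82 ± 0.22 log2 without hydrocortisone (adjusted p = 0.397) and 1.01 ± 0.22 with it (adjusted p = 0.0814), so neither response passed alone. The interaction was 1.83 ± 0.31 log2 (95% interval 1.19 to 2.48, adjusted p = 0.0335, exact permutation p = 6.3e-05). This call was not stable, since it was lost in 14 of the 20 fits that leave out 1 library (1.69 to 1.87 log2, adjusted p from 0.0606 to 0.112). Those 14 are the fits without CON 1, 2 or 5, BGZ_L 1, 2, 3 or 4, KYDS 2, 4 or 5, and KYDS+BGZ_L 1, 3, 4 or 5. It was also lost without scaling (1.32, adjusted p = 0.973), with nuclear TPM (2.27, adjusted p = 1), with an added constant of 1 (1.39, adjusted p = 0.0665) and with the replicate block (1.83, adjusted p = 0.102). Without CON 2 and BGZ_L 3 it was 1.89 (adjusted p = 0.0942), and without CON 4 and CON 5 it was 1.90 (adjusted p = 0.061).

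Sds and Gpt2, enzymes of amino acid breakdown, had the smallest p with a negative sign after Dbp, Nr1d1 and Per2 among genes with a mean log2 value of at least 1. Sds, serine dehydratase, had 37.7, 26.7, 42.8, 40.7 and 60.0 TPM in CON, 83.2, 100, 36.3, 76.3 and 81.9 TPM in BGZ_L, 20.6, 220, 121, 40.5 and 195 TPM in KYDS and 15.9, 18.7, 4.27, 13.4 and 11.5 TPM in KYDS+BGZ_L libraries. The KYDS+BGZ_L values all lie below the rest, and KYDS is the most spread group. BGZ_L lowered Sds in rats with hydrocortisone (-2.83 ± 0.54 log2, adjusted p = 0.0379) and gave 0.83 ± 0.54 without it (adjusted p = 0.857). The interaction was -3.65 ± 0.76 log2 (adjusted p = 0.214). It passed in 1 of the fits that leave out 1 library, that without KYDS 1 (-4.16, adjusted p = 0.0142).

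Gpt2, the mitochondrial alanine aminotransferase, had 2.53 to 5.69 TPM in KYDS+BGZ_L, 5.43 to 11.1 TPM in KYDS, 6.90 to 13.9 TPM in CON and 12.7 to 18.2 TPM in BGZ_L libraries, and its interaction was -1.52 ± 0.34 log2 (adjusted p = 0.363), which passed with library weights (-1.65, adjusted p = 0.0385). Got1, the cytosolic aspartate aminotransferase, gave -1.56 ± 0.46 (adjusted p = 0.999), and the tyrosine aminotransferase Tat gave -1.26 ± 0.38 (adjusted p = 0.999). Tat fell with BGZ_L under hydrocortisone (-1.50 ± 0.27, adjusted p = 0.0272), from 68.1 to 123 TPM in KYDS to 26.5 to 48.1 TPM in KYDS+BGZ_L libraries, which do not overlap. Of 19 gluconeogenesis genes tested, 0 passed the adjusted threshold, 2 (Got1 and Creb1) had a negative sign at an unadjusted limma p under 0.05 and 0 a positive one. These 2 are 10.5% of the list, against 2.03% of all genes. The list's median was -0.46 log2 (-0.097 without BGZ_L 1) and 14 of 19 estimates were negative. Its rate-limiting enzyme genes did not stand out, with -0.94 ± 0.46 for Pck1 (adjusted p = 0.999) and -2.0 ± 1.39 for G6pc (adjusted p = 0.999), which is listed at 0 in 3 CON libraries.

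Targets of the glucocorticoid receptor had 18 negative estimates of 24 tested, with a median of -0.60 log2. None passed the adjusted threshold, and 5 were negative at an unadjusted limma p under 0.05 (20.8%, against 2.03% of all genes), namely Tat, Errfi1, Nfkbia, Klf9 and Ddit4. Hydrocortisone alone gave this list a median of 0.04 log2, with 3 of the 24 higher and 2 lower past the adjusted threshold. Over all genes 3.25% were higher and 3.02% lower in that comparison. In rats given BGZ_L the hydrocortisone effect had a median of -0.45 log2, with 3 of the 24 higher and 6 lower. There the shares over all genes were 8.82% higher and 8.55% lower. Errfi1, a feedback inhibitor of the EGF receptor, measured 47.0, 26.0, 38.9, 117 and 97.9 TPM in CON and 77.9, 44.3, 38.0, 37.6 and 58.9 TPM in BGZ_L libraries. It measured 121, 177, 118, 166 and 117 TPM in KYDS and 56.0, 45.5, 24.9, 48.5 and 37.0 TPM in KYDS+BGZ_L libraries, so hydrocortisone raised it alone (1.29 log2, adjusted p = 0.0396) and gave -0.27 with BGZ_L (adjusted p = 0.64). Its interaction was -1.55 ± 0.50 (adjusted p = 0.999). Nfkbia, the inhibitor of NF-kappaB, fell with hydrocortisone in both settings (-0.66, adjusted p = 0.044, and -1.32 log2, adjusted p = 0.000432), and its interaction was -0.66 ± 0.27 (adjusted p = 0.999). Klf9 and Ddit4 were named after their values were seen.

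Other glucocorticoid-linked genes showed intervals that include 0. Tsc22d3, which encodes the anti-inflammatory protein GILZ, gave -0.84 ± 0.47 log2, and the phosphatase gene Dusp1 gave -0.98 ± 0.59. The cochaperone gene Fkbp5 gave -0.01 ± 0.35 (95% interval -0.75 to 0.73) and the receptor gene Nr3c1 itself -0.00 ± 0.36 (95% interval -0.76 to 0.75). Hsd11b1, whose enzyme regenerates active glucocorticoid, gave 0.84 ± 0.52, and Fkbp4 0.48 ± 0.34. Of 12 genes of the receptor and steroid handling list, 0 passed at either p, and the median was 0.17 log2.

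**Figure D4:**
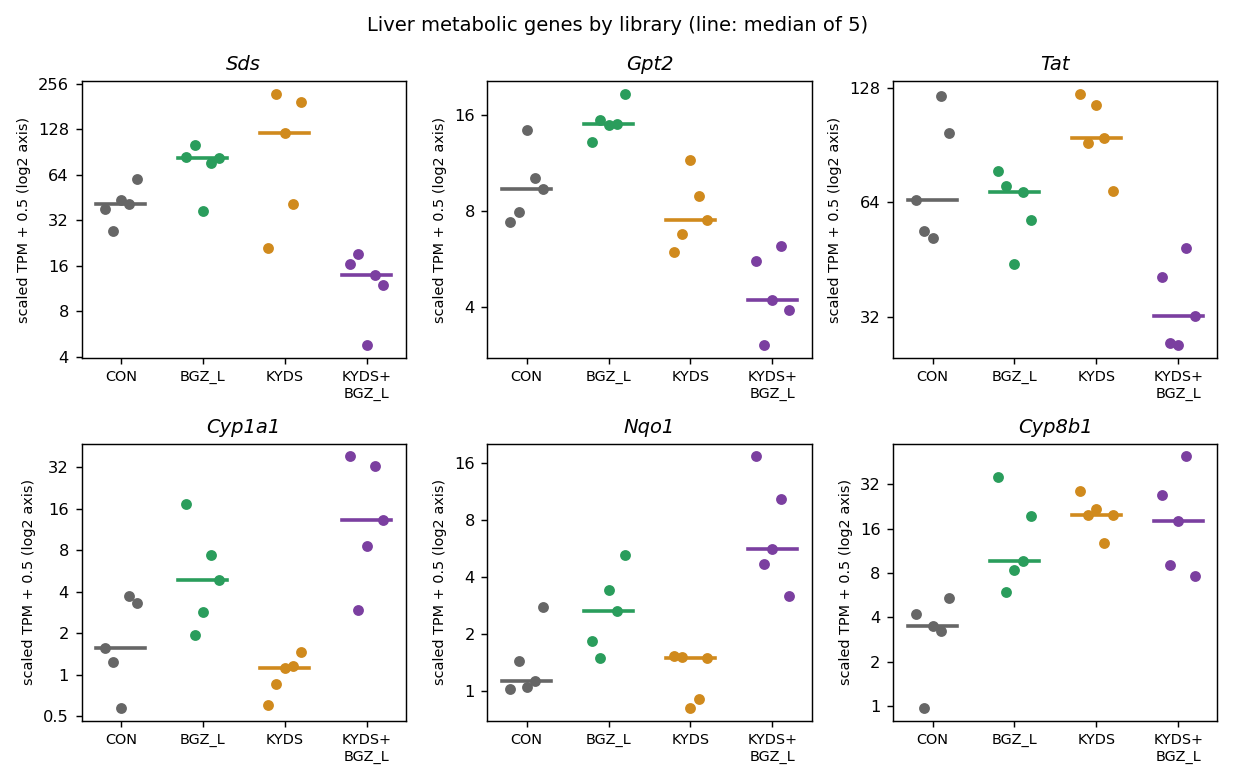
Scaled TPM plus 0.5 (log2 axis) of 6 metabolic genes in each of the 20 libraries, by group, with 1 point per library and a line at each group's median. For Sds the 5 KYDS+BGZ_L points lie below all others, and for Cyp1a1 and Nqo1 they lie above all KYDS points.

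The 7 tested genes of the aryl hydrocarbon receptor list, a xenobiotic sensor with its targets, all had positive estimates, with a median of 1.48 log2. At the adjusted threshold 0 passed, and 3 (Nqo1, Cyp1a2 and Cyp1a1) had an unadjusted limma p under 0.05 (42.9%, against 1.74% of all genes). None of the 3 reached 0.05 in the exact permutation test of the gene alone, which gave p = 0.152 for Nqo1, 0.163 for Cyp1a2 and 0.204 for Cyp1a1. Cyp1a1, the receptor's best known target, measured 1.05, 0.735, 0.0723, 3.19 and 2.80 TPM in CON, 16.7, 1.44, 2.35, 6.92 and 4.39 TPM in BGZ_L, 0.104, 0.353, 0.608, 0.648 and 0.948 TPM in KYDS and 37.9, 2.43, 8.10, 32.0 and 12.7 TPM in KYDS+BGZ_L libraries. KYDS+BGZ_L lies above KYDS with no overlap, while BGZ_L overlaps CON. BGZ_L raised Cyp1a1 with hydrocortisone (3.75 ± 0.67 log2, adjusted p = 0.0253), and the estimate without it was 1.60 ± 0.67 (adjusted p = 0.784). The interaction was 2.15 ± 0.94 (95% interval 0.18 to 4.11, adjusted p = 0.999), which did not pass. The related gene Cyp1a2 went from 37.4 to 106 TPM in KYDS to 110 to 1520 TPM in KYDS+BGZ_L libraries (3.14 ± 0.58, adjusted p = 0.0323), with an estimate of 1.17 ± 0.58 without hydrocortisone (adjusted p = 0.826) and an interaction of 1.98 ± 0.83 (adjusted p = 0.999).

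NRF2, the regulator of antioxidant genes, shares Nqo1 with that list. Of its 21 tested genes 19 had positive estimates, with a median of 0.39 log2 (0.75 without KYDS 3 and 0.76 without KYDS+BGZ_L 5), and 0 passed the adjusted threshold. Nqo1, Akr7a3, Gsta3 and Txnrd1 had an unadjusted limma p under 0.05 (19%, against 1.74% of all genes), and the last 2 were named after their values were seen. Nqo1, a quinone reductase, measured 0.318 to 1.04 TPM in KYDS and 2.68 to 16.8 TPM in KYDS+BGZ_L libraries, with no overlap. BGZ_L raised it with hydrocortisone (2.50 ± 0.43 log2, adjusted p = 0.017), the estimate without it was 0.94 ± 0.43 (adjusted p = 0.813) and the interaction was 1.56 ± 0.60 (adjusted p = 0.999). Akr7a3, an aldehyde reductase, gave 1.62 ± 0.71 (adjusted p = 0.999, exact permutation p = 0.135). Glutathione transferases have near copies that can share reads, so the value of Gsta3 is uncertain.

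Interferon-response genes had negative estimates in 24 of 26 tested, against 6013 of all 11869 genes, with a median of -0.57 log2. None passed the adjusted threshold, and 5 were negative at an unadjusted limma p under 0.05 (19.2%, against 2.03% of all genes), including Usp18, Psmb9, Irf9 and Isg15, the last 3 named after their values were seen. Usp18, which damps interferon signalling, had 0.420 to 1.18 TPM in CON, 0.782 to 2.39 TPM in BGZ_L, 2.25 to 4.70 TPM in KYDS and 1.53 to 2.96 TPM in KYDS+BGZ_L libraries. Hydrocortisone alone raised Usp18 (1.44 log2, adjusted p = 0.00351), and its interaction was -1.05 ± 0.36 (adjusted p = 0.999). BGZ_L 2 had the highest level of its group in 16 of the 26 genes, and the share over all genes was not computed. Irf7, a regulator of interferon genes, stood at 70.6 TPM in BGZ_L 2 and 6.17 to 15.0 TPM in the other BGZ_L libraries. The same library had the most RNA of Kupffer and macrophage markers (a sum of 938 TPM, against 74.5 to 210.0 TPM in the other BGZ_L libraries), and 10 of 11 of those markers had negative estimates (median -0.70 log2). The part of these markers in the interferon result was not tested. Without BGZ_L 2, 21 of 25 tested interferon genes were negative with a median of -0.45, and 3 were negative at an unadjusted limma p under 0.05. Irf7 was named after its values were seen.

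Genes of cholesterol synthesis had positive estimates in 23 of 23 tested, from 0.03 to 1.94 log2, with a median of 0.84. This rested on CON 4 and CON 5, which lay above the other 3 CON libraries in 22 of the 23 genes. The share of all genes in which they did so was not computed. Without both, 12 of 23 estimates were positive, the median was 0.0060 and 1 gene was positive at an unadjusted limma p under 0.05. With all libraries none passed the adjusted threshold, and 2, Mvk and Idi1, had an unadjusted limma p under 0.05 (8.7%, against 1.74% of all genes). The median BGZ_L effect was -0.77 log2 without hydrocortisone and 0.13 with it, and no member passed in either. Idi1, an isomerase of the pathway, had 1.06, 2.85, 1.20, 11.2 and 25.5 TPM in CON and 0.929, 1.11, 0.637, 1.63 and 0.765 TPM in BGZ_L libraries, with CON 4 and CON 5 well above the rest. Hmgcs1, an early enzyme of the pathway, had 37.9 and 62.5 TPM in CON 4 and CON 5 and 5.03 to 6.96 TPM in the other CON libraries. The interaction of Idi1 was 1.94 ± 0.92 (adjusted p = 0.999, exact permutation p = 0.0775). That of Sc5d, a desaturase late in the pathway, was 1.28 ± 0.74 (adjusted p = 0.999, exact permutation p = 0.119). Mvk and Hmgcs1 were named after their values were seen. The genes of this pathway share 1 set of libraries and are not independent of each other.

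In bile acid synthesis and transport, 27 genes were tested and 0 passed the adjusted threshold. At an unadjusted limma p under 0.05, 1 was positive (3.7%, against 1.74% of all genes), Baat, named after its values were seen. With a negative sign there were 2, Acox2 and Cyp8b1 (7.41%, against 2.03%), and the median was 0.26 log2. Cyp8b1, which makes the 12-alpha-hydroxylated bile acids, stood at 3.72, 0.475, 3.01, 2.74 and 4.92 TPM in CON, lower than all 15 other libraries. BGZ_L libraries had 35.1, 5.49, 7.93, 9.14 and 18.8 TPM, KYDS libraries 28.2, 19.3, 21.3, 12.2 and 19.3 TPM and KYDS+BGZ_L libraries 26.5, 8.62, 17.6, 48.8 and 7.12 TPM. Hydrocortisone alone raised it (2.72 log2, adjusted p = 0.0096), BGZ_L alone gave 2.07 ± 0.54 (adjusted p = 0.393), and the interaction was -2.25 ± 0.77 (adjusted p = 0.999). Cyp7a1, the rate-limiting enzyme of bile acid synthesis, gave 1.15 ± 0.92 (adjusted p = 0.999).

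**Figure D5:**
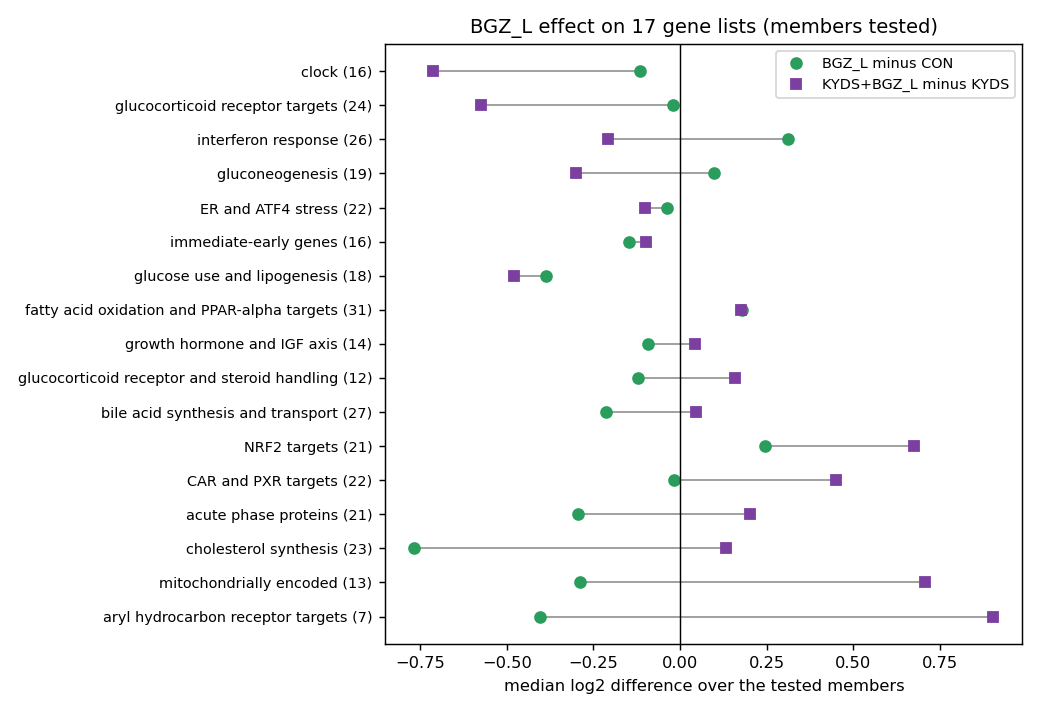
Median BGZ_L effect (log2) over the tested members of each of the 17 pathway lists, without hydrocortisone (circles) and with it (squares), with the number of members tested in brackets. The clock list goes from -0.12 to -0.71, the aryl hydrocarbon receptor list from -0.40 to 0.90 and the cholesterol synthesis list, whose CON 4 and CON 5 stand apart, from -0.77 to 0.13.

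Of 18 glucose use and lipogenesis genes tested, 0 passed the adjusted threshold, and the median was -0.02 log2. At an unadjusted limma p under 0.05, 2 were negative (11.1%, against 2.03% of all genes) and 0 positive. These 2 were Thrsp and Scd, the latter named after its values were seen. Thrsp, a thyroid-hormone-responsive gene of lipogenesis, had 9.60 to 16.4 TPM in KYDS+BGZ_L and 25.5 to 143 TPM in all other libraries, with no overlap. It fell with BGZ_L under hydrocortisone (-2.39 ± 0.35, adjusted p = 0.00412), with -0.66 ± 0.35 without it (adjusted p = 0.826). The interaction of Thrsp was -1.73 ± 0.50 (adjusted p = 0.999, exact permutation p = 0.0664). Gckr, which acts in glucose handling and was raised by hydrocortisone with BGZ_L (3.41 log2, adjusted p = 4.44e-05) and without it (3.37, adjusted p = 0.000142), gave 0.05 ± 0.57 (95% interval -1.14 to 1.23).

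Fatty acid oxidation genes numbered 31 tested, with 0 past the adjusted threshold and a median of 0.06. At an unadjusted limma p under 0.05, 1 was positive (3.23%, against 1.74% of all genes). With a negative sign there were 2, Hadhb and Bdh1 (6.45%, against 2.03%). The hepatokine gene Fgf21 gave 1.07 ± 0.62 log2 (adjusted p = 0.999). The growth hormone and IGF axis gave 0 of 14 past the adjusted threshold and a median of 0.16. At the unadjusted p it gave 1 positive (7.14%, against 1.74%), Socs2, with 1.76 ± 0.83 (exact permutation p = 0.0811). Igf1 gave 0.12 ± 0.59 (95% interval -1.11 to 1.36) and Igfals 0.59 ± 0.78. Targets of the drug-sensing receptors CAR and PXR gave 0 of 22, with 1 positive at an unadjusted p (4.55%, against 1.74%) and a median of 0.40. That gene was Cyp3a18 (3.14 ± 1.09, adjusted p = 0.999). Cyp2b1 measured 27.5 to 209 TPM in KYDS+BGZ_L and 0.666 to 27.0 TPM in the other libraries, with an interaction of 1.99 ± 0.96 (adjusted p = 0.999), and both genes have close copies in rat that can share reads. Ces2c, a carboxylesterase gene, gave 1.14 ± 0.82.

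The remaining lists had 0 genes past the adjusted threshold each. Acute phase proteins had 21 tested genes and a median of 0.61 log2. At an unadjusted limma p under 0.05, 1 was positive (Il6st, 4.76%, against 1.74% of all genes) and 1 negative (Il6r, 4.76%, against 2.03%). Il6st and Il6r encode the subunits of the interleukin-6 receptor, with interactions of 0.89 ± 0.36 and -1.38 ± 0.47 (adjusted p = 0.999 for each). Endoplasmic reticulum and ATF4 stress genes gave 1 negative of 22 at that p (4.55%, against 2.03%) and a median of -0.16. That gene, Herpud1, which acts in clearance of misfolded proteins, had 17.8 to 46.9 TPM in KYDS and 6.19 to 11.8 TPM in KYDS+BGZ_L libraries (-1.81 ± 0.33, adjusted p = 0.0272), with an interaction of -1.79 ± 0.46 (adjusted p = 0.688). Immediate-early genes gave 1 positive of 16 (6.25%, against 1.74%), Ier2 with 1.18 ± 0.54, and a median of -0.08. The 13 mitochondrially encoded genes gave 0 at either p and a median of 0.97, with 1.63 ± 0.80 for Mt-nd4l and 1.42 ± 0.82 for Mt-atp8. Their estimates were not uniform, with 12 above 0 and 1 below it, at -4.19. Scgb1d4, a secretoglobin gene named for its levels, gave 0.66 ± 2.02 (95% interval -3.56 to 4.88), the least precise of the named genes.

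Genes outside these lists with the smallest p and a positive sign included Mif, which encodes a cytokine and tautomerase. Mif had 123 to 254 TPM in KYDS+BGZ_L and 42.4 to 108 TPM in all other libraries, with an interaction of 1.66 ± 0.39 log2 (adjusted p = 0.511). Osgin1, an oxidative stress response gene, gave 2.23 ± 0.53 (adjusted p = 0.511) and passed in 1 of the fits that leave out 1 library, that without CON 3 (2.62, adjusted p = 0.0192). Mospd2, a membrane-contact protein gene, gave 1.31 ± 0.31 (adjusted p = 0.511), and the coactivator gene Pnrc1 gave 1.13 ± 0.31 (adjusted p = 0.8). The tubulin gene Tubb2a had 8.23 to 14.9 TPM in KYDS+BGZ_L and 2.13 to 6.03 TPM elsewhere (1.38 ± 0.37, adjusted p = 0.765), and its close copy Tubb2b had 4.42 to 5.84 and 0.174 to 3.26 TPM, so reads may be split between them. Pir, an iron-binding nuclear protein gene, gave 1.5 ± 0.43 (adjusted p = 0.996), and Mocos, a molybdenum cofactor enzyme gene, 2.23 ± 0.67 (adjusted p = 0.999).

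The 13 genes whose KYDS+BGZ_L libraries all lay below the rest included Dbp, Nr1d1, Per2, Sds, Tef, Thrsp, Tarbp1, Klf15, Sorbs3, Per3, Ntsr1 and AC109891.1. The 11 that lay above were Mif, Tubb2a, Tubb2b, Anxa7, Kynu, Blvrb, Mk1, Cyp2b1, Cavin3, Mad2l2 and MGC108823. Genes of these 24 that no other rule took were named after their values were seen. Klf15, a regulator of amino acid breakdown, measured 2.99 to 4.53 TPM against 5.18 to 15.6 TPM (-1.09 ± 0.42, adjusted p = 0.999). Kynu, an enzyme of tryptophan breakdown, measured 31.6 to 37.1 TPM against 3.36 to 24.7 TPM (1.06 ± 0.37, adjusted p = 0.999).

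The libraries differed in ways that the groups do not fully set, and no library value showed an interaction past the threshold. Mitochondrially encoded genes held 75.1% ± 10.2 of TPM in CON, 67.3% ± 17.3 in BGZ_L, 42.4% ± 18.0 in KYDS and 48.9% ± 17.7 in KYDS+BGZ_L libraries (SD, n = 5). Over 16 such values the smallest permutation p of the interaction difference was 0.191 (scaling factor), and adjusted p ranged from 0.741 to 0.927. Scaling factors ran from 0.231 in CON 2 to 2.01 in KYDS 2. All 12 hepatocyte markers were tested, and their summed level was 6471 to 13600 TPM in CON, 6571 to 9185 in BGZ_L, 8205 to 71610 in KYDS and 11330 to 55020 in KYDS+BGZ_L libraries.

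Markers of other liver cells gave 0 genes at either p for the interaction. Median interactions were 0.15 log2 for hepatocyte (12 tested), -0.70 for Kupffer and macrophage (11), -0.16 for T and NK cell (5), 0.08 for B cell (3) and 1.15 for neutrophil markers (2). They were 0.09 for endothelial (10), 0.24 for stellate cell and fibroblast (9), 0.70 for cholangiocyte (7) and -0.41 for erythroid markers (6). Of the neutrophil markers, 1 of 8 was listed at 0 in every library, and Mpo, Csf3r, Cxcr2, Elane, Camp and Np4 did not pass the filter. Kupffer and macrophage markers, 10 of 11 with negative estimates, summed to 68.4 to 114 TPM in CON, 74.5 to 938 in BGZ_L, 97.3 to 250.2 in KYDS and 73.6 to 260.0 in KYDS+BGZ_L libraries. The sum of 938 TPM was that of BGZ_L 2. Over 33 alternative fits, which include 1 without BGZ_L 2, the median of these markers ranged from -1.20 to -0.12 log2. The part of these markers in the results was not tested, and in whole tissue fewer cells of a type and less RNA per cell cannot be told apart.

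The precision of the interaction was lower than that of a single response. The median SE of the interaction was 0.472 log2 against 0.334 for BGZ_L minus CON, and its 95% interval reached 0.986 log2 to either side in the median gene. For 2691 genes (22.7%) the whole interval lay within 1 log2 of 0.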

How the data were processed

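RNA from the livers of 20 male rats was measured in 4 groups of 5, and the labels gave each library its group and replicate number. Per the labels' protocols, Trizol was used to extract total RNA, a TruSeq kit to prepare libraries, sequencing was paired, and read 1 alone was used. The authors deposited a single table, named as counts, whose values were read as TPM because they carry 2 decimals, sum to 914343 to 983962 per library and share no common step at low levels. For the aligner, the counting tool and its use of strand, nothing is given in the sources used here. The submitters' processing notes list the mouse builds GRCm38, mm10 and GRCm39 with no role, while the gene identifiers are those of rat in Ensembl. The depth per library is therefore unknown, and no interval that needs it was computed.

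TPM values were scaled by an unweighted trimmed mean of log ratios (30% of ratios and 5% of levels trimmed), and genes with at least 0.5 in at least 5 libraries were kept. The log2 of the scaled TPM plus 0.5 was fitted in limma 3.58.1 (R 4.3.3, trended and robust prior, 16 residual degrees of freedom), and the interaction was tested two-sided with Benjamini-Hochberg adjustment. Whole-library values were tested by exact permutation of BGZ_L labels within rats with and within rats without hydrocortisone. Exact means that all regroupings were used. The test assumes no BGZ_L effect in either setting, so its p is not exact for the interaction by itself. The 33 genes with no symbol held at most 0.0111% of a library. The method was tested on simulated data. The data.table package (version 1.17.8), Python 3.11.15 and matplotlib 3.10.9 were also used. The p values of limma set each difference against the spread between libraries within groups, pooled over the 4 groups.

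The comparison, the 17 pathway lists, the 9 marker lists and the naming rule were chosen with earlier results of these data known. The rule took genes with a mean log2 value of at least 1 and a symbol that is not provisional, namely the 8 with the smallest interaction p in each direction (fewer than 6 passed in either), the 2 members of each pathway list with the smallest p, and a set read for their levels. Same-numbered libraries of different groups gave 7 of 30 correlations above 0.1 (-0.459 to 0.335), so the numbers were not used as pairs. Alternatives varied the scaling, the added constant, the filter, the prior, library weights, a covariate, a replicate block and the libraries included. Some genes that the rule or the lists took are not reported here.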

Additional observations from a re-analysis of the deposited data

Results flagged for a closer look

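The interaction of Dbp (-4.14 log2), Nr1d1 (-2.78) and Dipk2a (1.83) passed limma's test of the difference between the responses to BGZ_L with and without hydrocortisone.

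Among 296 groups of 5 libraries (58 genes and 16 library values in each of 4 groups), 17 held a library that lay apart from the other 4 by Dixon's test at the 95% level, and chance flags about 1 in 20 groups. Dbp was 10.6 TPM in KYDS 4 against 42.0 to 65.0 TPM in the other KYDS libraries. In the same library the third principal component was 25.7 against -9.14 to 0.726. Sds was 36.3 TPM in BGZ_L 3 against 76.3 to 100 TPM. Osgin1 was 26.1 TPM in CON 3 against 86.9 to 130 TPM, and the second principal component of that library was -58.6 against 15.0 to 43.5. Mocos was 7.32 TPM in CON 5 against 2.38 to 3.33 TPM. Cyp1a2 was 106 TPM in KYDS 3 against 37.4 to 44.1 TPM.

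Within KYDS+BGZ_L, Mospd2 was 7.54 TPM in replicate 4 against 4.10 to 4.57 TPM, Herpud1 was 11.8 TPM in replicate 1 against 6.19 to 6.97 TPM, and Fgf21 was 3.43 TPM in replicate 3 against 6.35 to 7.52 TPM. G6pc was 22.7 TPM in CON 4, where 3 CON libraries list it at 0 and the other at 0.236 TPM, and 15.4 TPM in BGZ_L 1 against 0.0966 to 0.940 TPM. Summed marker levels stood apart in 5 groups. Kupffer and macrophage markers summed to 938 TPM in BGZ_L 2 against 74.5 to 210.0 TPM, and T and NK cell markers to 8.09 TPM in KYDS+BGZ_L 3 against 4.21 to 5.28 TPM. B cell markers summed to 5.76 TPM in KYDS+BGZ_L 2 against 1.42 to 2.65 TPM, endothelial markers to 82.5 TPM in CON 4 against 64.8 to 67.9 TPM, and erythroid markers to 6950 TPM in KYDS+BGZ_L 5 against 1780 to 2840 TPM.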

How the results depend on the processing

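The count of 3 genes became 0 without scaling, 0 with nuclear TPM, 9 with library weights, 1 without CON 2 and BGZ_L 3 and 5 without CON 4 and CON 5 (left out together after seeing the data), and ranged from 2 to 5 when 1 library was left out (5 without CON 3, CON 4, BGZ_L 5 or KYDS 3). The 447 genes at an unadjusted p under 0.05 became 211 with nuclear TPM, 1080 with nuclear over mitochondrial TPM (log2) as a covariate and 953 with library weights, and ranged from 339 to 780 when 1 library was left out (780 without CON 3). Without scaling the median interaction of all genes was -0.405 log2 and the split was 21 positive to 353 negative, against 206 to 241. The replicate block gave 3 genes past the threshold, 0 positive and 3 negative, and 416 at the unadjusted p. The cause of these changes was not tested.

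Estimates near 0 changed sign. Without scaling they were -0.035 for Fkbp4, -0.39 for Igf1 and -0.47 for Gckr, and with the median of all genes taken off (chosen after seeing the data, like the permutation tests of single genes) -0.069 for Gckr and 0.080 for Fkbp5. Nr3c1 was 0.0061 with median-ratio factors, 0.016 with an added constant of 0.1, 0.20 with that covariate and 0.075 without CON 4 and CON 5. Gckr was -0.010 with nuclear TPM, -0.0020 with an added constant of 0.1, -0.29 with the covariate, -0.14 with library weights, -0.25 without CON 2 and BGZ_L 3 and -0.11 without CON 4 and CON 5. Scgb1d4 was -0.77 with the covariate and -0.0100 with library weights, where Igf1 was -0.032 and Fkbp5 0.046, and Fkbp5 was 0.15 without CON 2 and BGZ_L 3. With 1 library left out, Fkbp5 ranged from -0.14 to 0.14, Gckr ranged from -0.31 to 0.31, Igf1 ranged from -0.30 to 0.37, Nr3c1 ranged from -0.20 to 0.15 and Scgb1d4 ranged from -0.36 to 1.55.

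In 33 of 33 alternatives the list medians were negative for the clock (-1.13 to -0.44), glucocorticoid targets (-1.11 to -0.49), gluconeogenesis (-0.98 without scaling to -0.097 without BGZ_L 1) and interferon (-0.95 to -0.42). They were positive for the aryl hydrocarbon receptor (0.80 to 1.92), NRF2 (0.18 to 0.76), cholesterol synthesis (0.0060 without CON 4 and CON 5 to 1.19) and acute phase lists (0.087 without scaling to 1.11 with the covariate). The depth is unknown, so low levels carry no detection limit.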

Other observations

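KYDS 4 had the lowest Dbp and Nr1d1 and the highest Arntl of its group. For Cry1 (1.79 TPM, the lowest of all 20 libraries) it lies on the side away from KYDS+BGZ_L, and for Per2 (7.24 TPM) it lies within the range of the other KYDS libraries. Without this library, a fit singled out after seeing the data, 2 genes passed the interaction threshold and 339 had an unadjusted limma p under 0.05.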
